A study of Mus musculus with 15 samples.

Results

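The genes described here encode the proteins of the cytosolic ribosome in mouse melanoma grafts. They were taken from the deposited gene table by symbol: Rpl or Rps followed by a number and at most 1 of the letters a, l, x or y, together with Rplp0, Rplp1, Rplp2 and Rpsa. A gene also had to reach 1 TPM (the level as a share of all transcripts in the library, corrected for transcript length) in at least 3 of the 15 libraries. The symbols matched 80 genes and 79 of these passed, out of 23420 genes in the table and 13592 tested. The 79 members comprised 31 small subunit and 48 large subunit genes. Rpl3l, the muscle paralog of Rpl3, lay just inside the minimum at 0 to 2.77 TPM, and Rpl10l, the testis paralog of Rpl10, was listed at 0 in all 15 libraries.

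RNA was sequenced from whole tumors grown in the flanks of C57BL/6 mice, all female and aged 8 weeks, after injection of 1000000 melanoma cells per flank. The cells were the D4M.3A.3 line, called parental, or D3UV2, called UV2, to which putative neoantigens had been added by UVB. Left flank grafts were treated on days 8, 10 and 12, with the laser on days 8 and 12 only, and tumors were taken on day 13. The 5 groups of 3 libraries were parental grafts given isotype control antibody, parental grafts given anti-PD-1 (an antibody that blocks a T cell checkpoint receptor), parental grafts given triple therapy, UV2 grafts given isotype antibody and UV2 grafts given anti-PD-1. Triple therapy combined ablative fractional photothermolysis (a laser treatment of skin), imiquimod (a Toll-like receptor agonist applied to skin) and an antibody. The sample labels and the design text name that antibody as anti-PD-1 and the treatment protocol names it as isotype, so its identity could not be settled. The labels do not say whether replicates came from separate animals, and the p-values measure only the spread between these libraries. Each line is a single cell line.

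Each library summed to 1000000 TPM and its read depth is unknown. The libraries held 12239 to 13993 genes at 1 TPM or more, and no 2 were identical. Of 10 melanocyte lineage markers, 2 (Mitf and Tyr) passed the filter, Sox10, Tyrp1, Dct, Pmel, Mlana, Slc45a2 and Gpr143 did not, and Oca2 was listed at 0 in every library, so the melanocytic identity of the grafts was not visible in these markers. Summed T cell markers ran from 55.0 to 194 TPM in the 9 parental libraries, from 109 to 447 TPM under isotype in UV2 and from 496 to 699 TPM under anti-PD-1 in UV2. In bulk tumors fewer cells of a type and less RNA per cell cannot be told apart.

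The cytosolic ribosome translates messenger RNA and is built from a small subunit, which reads the message, and a large subunit, which joins amino acids and holds the exit tunnel for the new chain. Its proteins are made in balanced amounts, and most of their messages begin with a C followed by a run of pyrimidines, the 5′ terminal oligopyrimidine (TOP) motif, through which mTORC1 signaling and the RNA-binding protein LARP1 control their translation. Ribosomal protein messages are among the most abundant of nearly every cell type, so a bulk tumor measures those of all its cells together.

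The region around the transcription start was searched for features that the selection by name did not use. RefSeq promoters (GRCm38.p6) were matched for 59 of the 79 members, and the windows of 50 bases below hold the 30 bases before the RefSeq start and the first 20 bases from it on, 5′ to 3′ on the gene's strand. Capitals mark the C with at least 4 further pyrimidines that lies nearest to the start. The sets show the members on which the comparisons between lines turn (Rplp2, Rps13, Rps26, Rps10, Rpl27a), the stalk and exit tunnel members Rplp0 and Rpl4, which did not pass the test there, and Rpl39l, the autosomal paralog of Rpl39. Rps6 is shown as the mTOR-pathway phosphorylation target and Rpl38 as a run that begins exactly at the start.
Rplp2, chr7:141447621-141447670, plus strand: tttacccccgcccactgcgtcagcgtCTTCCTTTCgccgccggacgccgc
Rps13, chr7:116334171-116334220, minus strand: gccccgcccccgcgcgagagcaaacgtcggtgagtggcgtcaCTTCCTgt
Rps26, chr10:128626487-128626536, minus strand: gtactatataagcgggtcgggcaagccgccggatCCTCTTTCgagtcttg
Rps10, chr17:27635225-27635274, minus strand: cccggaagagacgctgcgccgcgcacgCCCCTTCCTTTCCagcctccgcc
Rpl27a, chr7:109519165-109519214, plus strand: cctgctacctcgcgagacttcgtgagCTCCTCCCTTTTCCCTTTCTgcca
Rpl38, chr11:114668550-114668599, plus strand: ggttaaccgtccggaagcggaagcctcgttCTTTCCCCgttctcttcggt
Rps6, chr4:86857348-86857397, minus strand: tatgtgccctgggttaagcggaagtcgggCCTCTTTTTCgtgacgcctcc
Rplp0, chr5:115559437-115559486, plus strand: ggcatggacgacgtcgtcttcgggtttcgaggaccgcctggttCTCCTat
Rpl4, chr9:64173357-64173406, plus strand: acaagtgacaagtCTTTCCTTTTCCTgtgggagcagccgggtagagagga
Rpl39l, chr16:10170198-10170247, plus strand: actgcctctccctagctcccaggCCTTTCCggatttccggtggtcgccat

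The marked run of Rpl27a is 20 bases long and begins 4 bases before the RefSeq start, that of Rps10 is 13 bases long and begins 3 bases before it, and that of Rpl4, also 13 bases long, begins 17 bases before it. A C with 4 pyrimidines began within 5 bases of the start, on the gene's strand, in 28 of 59 members (47.5%), against 21.5% of 17492 protein-coding genes with a promoter entry and 23.6% of 9977 other tested genes with one. The base at the RefSeq start was itself a C followed by 4 pyrimidines in 13 of 59 members (22.0%), against 2.67% of protein-coding genes and 2.91% of other tested genes, and in members such as Rplp2 and Rps10 this C lies inside a run that begins further upstream. The letters CTTTCC lay within 50 bases of the start on the gene's strand in 19 of 59 members (32.2%), against 5.12% of protein-coding genes and 5.12% of other tested genes. They overlap with the run just counted, since CTTTCC is itself a C followed by pyrimidines. In the 300 bases of the promoter entry, CCGGAAG (the letters of an ETS-type site, either strand) was found in 25 of 59 members (42.4%), in 12.9% of protein-coding genes and in 18.8% of other tested genes. GCCATNTT (a YY1-type site, either strand) was found in 11 of 59 members (18.6%), in 7.46% of protein-coding genes and in 9.52% of other tested genes. These are matches of letters and not measured binding. Rplp1, Rpl36, Rps29 and Rpl3 were among the members with no promoter entry.

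Ribosomal protein messages were a large part of every library. Together the members made up 11.1% to 18.6% of all TPM, and 40 to 53 of them stood among the 100 most abundant genes of a library. Rpl41, which encodes the shortest ribosomal peptide, had the highest mean level over the 15 libraries at 4205 TPM, followed by Rps12 at 3523 TPM and Rplp1, an acidic protein of the ribosomal stalk, at 3466 TPM. At the other end stood Rpl3l at 0.745 TPM, Rps27 at 6.02 TPM and Rpl39l at 11.7 TPM. The place of Rps27 is uncertain, since Gm9846, a row with 100% identical coding sequence, stood at a mean of 2272 TPM.

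The share of TPM was 12.0%, 12.4% and 15.4% in replicates 1 to 3 of parental isotype grafts, a mean of 13.3 ± 1.88 (SD, n = 3). It was 11.1%, 13.8% and 12.0% under anti-PD-1 (12.3 ± 1.34, SD, n = 3) and 11.3%, 12.5% and 12.4% under triple therapy (12.1 ± 0.655, SD, n = 3). In UV2 grafts it was 17.2%, 18.6% and 12.7% with isotype antibody (16.1 ± 3.08, SD, n = 3) and 13.7%, 16.4% and 17.3% with anti-PD-1 (15.8 ± 1.87, SD, n = 3). The UV2 means were the higher ones, but the lines overlapped: parental isotype replicate 3 lay above UV2 isotype replicate 3 and above UV2 anti-PD-1 replicate 1. Both subunits moved together, the small subunit genes holding 4.82% to 8.37% of TPM and the large subunit genes 6.30% to 10.2%, with a ratio of 0.748 to 0.820 in every library.

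**Figure D1:**
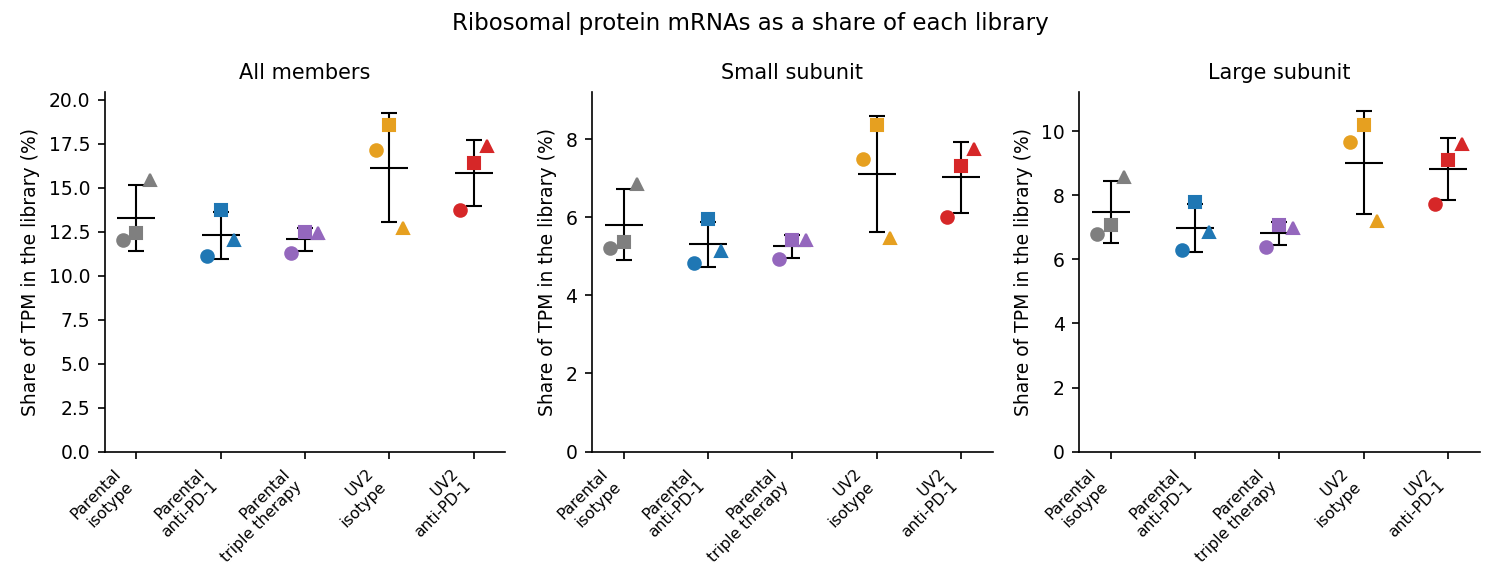
Share of all TPM held by the 79 ribosomal protein genes, by the 31 small subunit genes and by the 48 large subunit genes (y axes, percent of TPM) in the 5 groups (x axes); circles, squares and triangles are replicates 1, 2 and 3 and the bars are the mean ± SD of 3 libraries. All members together hold 11.1% to 18.6% of TPM, and parental isotype replicate 3, at 15.4%, lies within the range of the UV2 libraries.

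Among members with a mean of at least 5 TPM, Rpl23, Rpl6 and Rpl10, all large subunit proteins, varied least over the 15 libraries, with SDs of 0.12, 0.12 and 0.13 on the log2(TPM + 1) scale. Rpl39l, Rps27 and Rplp2 varied most, with SDs of 1.26, 0.53 and 0.52. Measured relative to the median member of the same library, Rpl18 and Rpl9 were among those that kept closest to the family, each with an SD of 0.05, and Rpl39l (1.33), Rpl26 (0.43) and Rps27 (0.39) strayed farthest. The highest library stood 1.32-fold above the lowest for Rpl23, 3.15-fold for Rplp2 and 35.8-fold for Rpl39l. These SDs cover differences between groups as well as between replicates. Those of Rps27 and Rpl26 are uncertain, because a near-identical row held most of the signal of each pair.

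**Figure D2:**
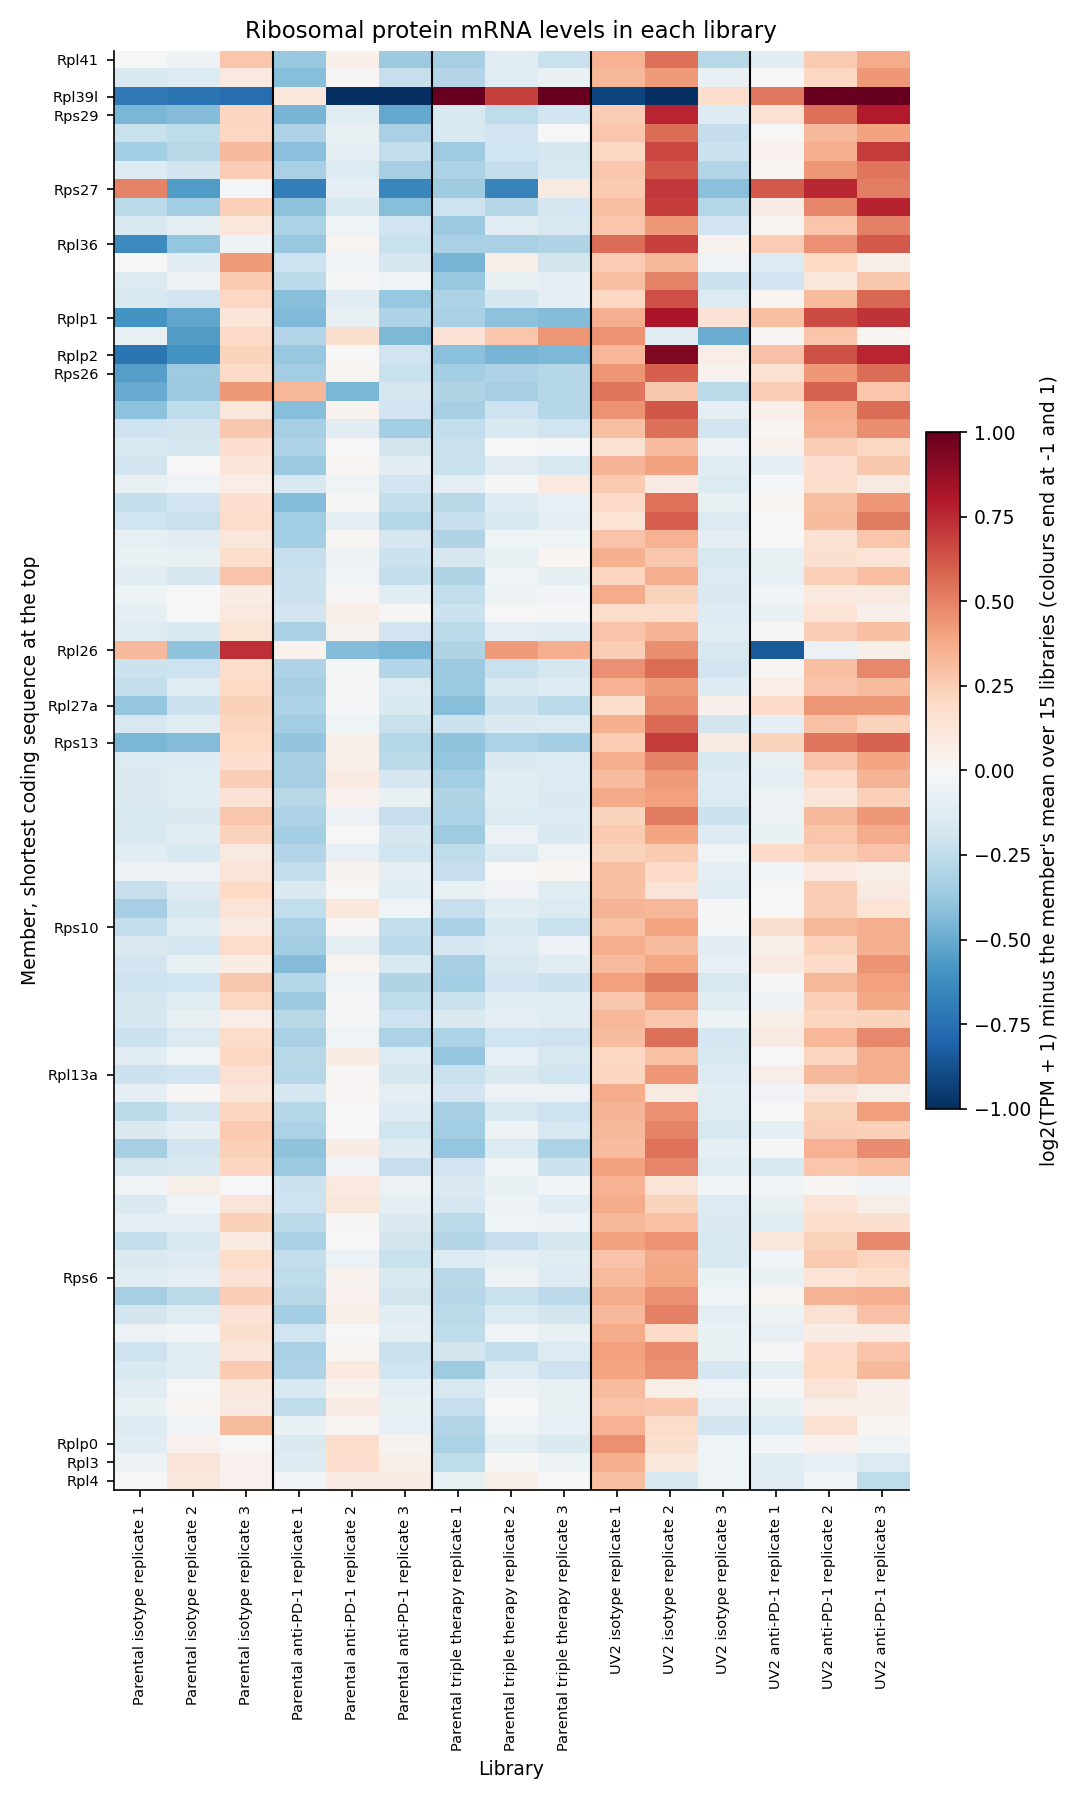
Heat map of the 78 members with a mean of at least 5 TPM (one line per gene, shortest coding sequence at the top, a few members labelled) in the 15 libraries (columns, by group); colour is log2(TPM + 1) minus the gene's mean over the libraries, with colours ending at -1 and 1. Whole libraries are lighter or darker together, and the contrast is stronger at the top than at the bottom.

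The first question of the design is how UV2 grafts differ from parental grafts. Ribosomal protein genes were on the higher side in UV2 tumors: averaged over both antibodies, 76 of 79 members had a positive difference and 30 rose. No member fell. An unadjusted p under 0.05 was found for 49 members and for 46.6% of all genes in either direction. The stalk proteins Rplp1 and Rplp2 and the large subunit protein Rpl36 had the smallest p-values, at 1.75-fold, 1.72-fold and 1.63-fold. Across all 13592 genes tested, 33.0% were called, 13.4% higher and 19.6% lower, so the 30 of 79 stand against a background in which 13.4% of genes rose.

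The median member difference, UV2 minus parental, was 0.31 on the log2(TPM + 1) scale against -0.12 for all genes, and it became -0.06 when every library was centred on its own member median, a scaling that takes the family's shared shift away, and 0.03 when each library's trend on coding length was removed. The test was limma's moderated test on log2(TPM + 1) with Benjamini-Hochberg adjustment over all genes, called at an adjusted p under 0.05. The count depended on single libraries: without 1 library it was 10 (parental isotype replicate 1 or 2, or parental anti-PD-1 replicate 1 or 3), 15, 11 or 56 (UV2 isotype replicate 1, 2 or 3), 12 or 9 (UV2 anti-PD-1 replicate 2 or 3) or 48 (without parental isotype replicate 3), and 22 to 42 without any of the other 5. The median stayed between 0.26 and 0.39 in these fits.

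The ribosomal stalk, which recruits translation factors, consists of Rplp0 at its base and of Rplp1 and Rplp2 above it, and its 3 members behaved unequally. Rplp1 (chr9:61913284-61914542, minus strand) stood at 2173, 2287 and 3563 TPM in parental isotype grafts, 2414, 3123 and 2646 TPM under anti-PD-1, and 2621, 2474 and 2425 TPM under triple therapy. In UV2 it stood at 4214, 5786 and 3622 TPM with isotype antibody and 4048, 5171 and 5418 TPM with anti-PD-1. All 6 UV2 libraries lay above all 9 parental ones, parental isotype replicate 3 being the closest. Rplp1 was higher by 0.80 ± 0.15 (log2, SE; adjusted p = 0.00309).

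Rplp2 (chr7:141447370-141451585, plus strand) stood at 1287, 1411 and 2491 TPM in parental isotype grafts, 1637, 2144 and 1857 TPM under anti-PD-1, and 1593, 1545 and 1564 TPM under triple therapy. In UV2 it stood at 2679, 4050 and 2233 TPM with isotype antibody and 2616, 3314 and 3623 TPM with anti-PD-1. Here 1 parental library, isotype replicate 3, lay above the lowest UV2 library. The difference was 0.78 ± 0.18 (log2, SE; adjusted p = 0.00795).

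Rplp0 (chr5:115559467-115563727, plus strand), their partner and a common reference gene, stood at 2568, 2846 and 2774 TPM in parental isotype grafts, at 2505, 3131 and 2837 TPM under anti-PD-1 and at 2220.4, 2581 and 2499 TPM under triple therapy. In UV2 it stood at 3788, 3089 and 2689 TPM with isotype antibody and 2717, 2849 and 2699 TPM with anti-PD-1. Only UV2 isotype replicate 1 lay above the highest parental library. The difference of Rplp0 was 0.09 ± 0.09 (log2, SE; adjusted p = 0.463). Relative to the member median, Rplp0 was lower in UV2 by 0.28 ± 0.11 (log2, SE; adjusted p = 0.0456), while Rplp1 and Rplp2 were higher by 0.43 ± 0.08 and 0.41 ± 0.10 (adjusted p = 0.00566 and 0.0137).

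**Figure D3:**
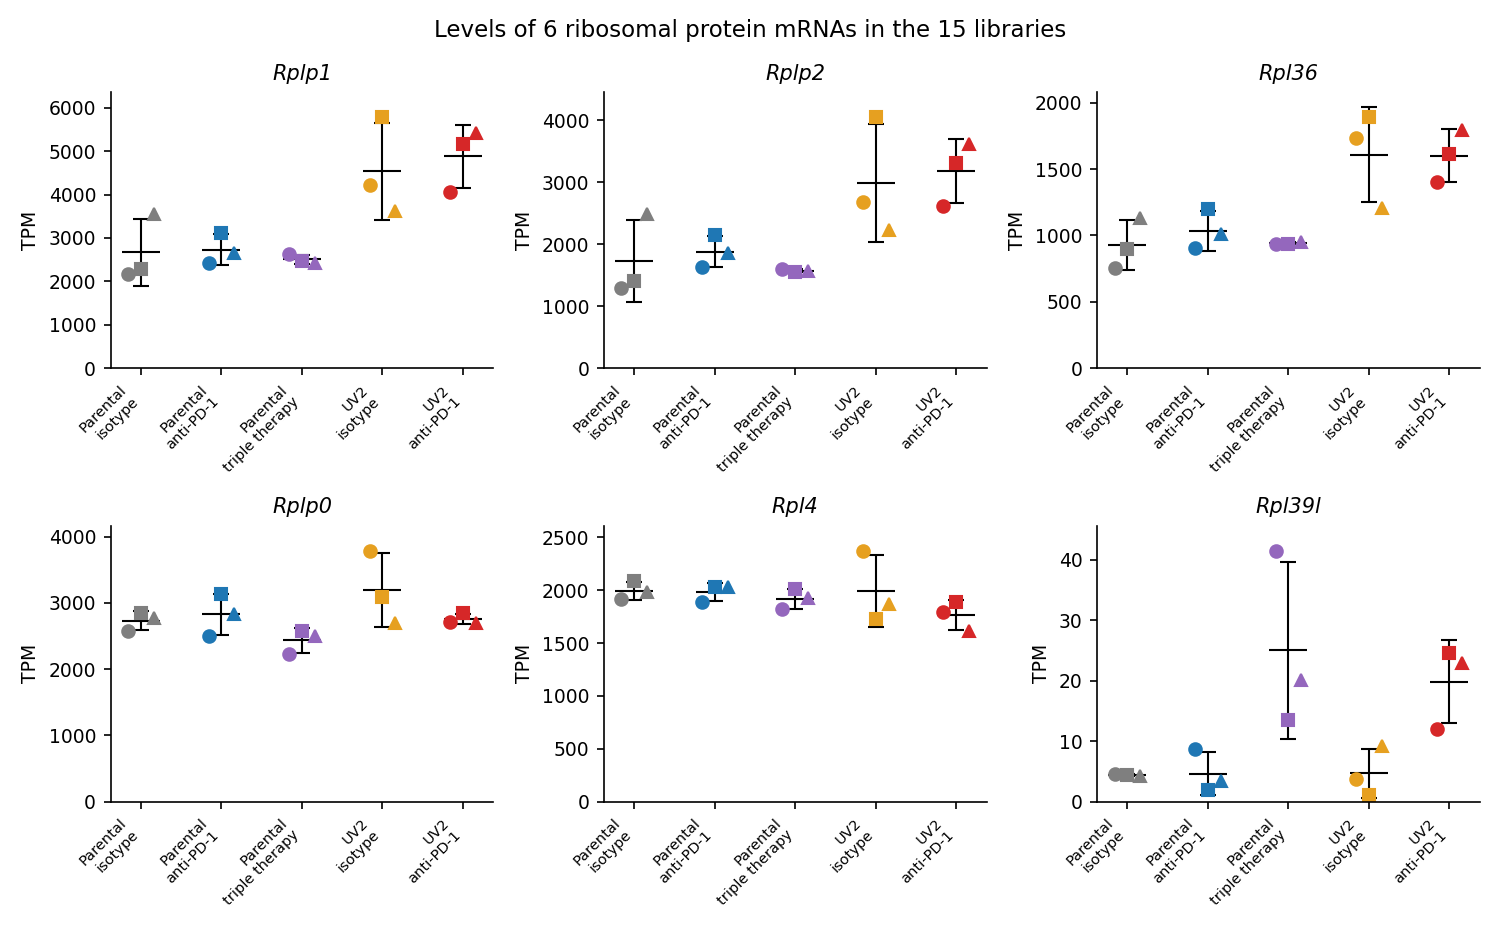
TPM (y axes, each from 0) of Rplp1, Rplp2, Rpl36, Rplp0, Rpl4 and Rpl39l in the 5 groups (x axes); circles, squares and triangles are replicates 1, 2 and 3 and bars are the mean ± SD of 3 libraries. Rplp1 is at 3622 TPM or more in every UV2 library and at most 3563 TPM in every parental one, Rplp0 and Rpl4 overlap between lines, and Rpl39l is high in the triple therapy and UV2 anti-PD-1 groups.

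In the small subunit, 13 of 31 members rose in UV2 and none fell, with a median difference of 0.32 that has the scaling limits given above. Of all genes 13.4% rose and 19.6% fell in this averaged comparison. Rps13 stood at 855, 870.02 and 1346 TPM in parental isotype grafts and 1400.0, 1900.03 and 1246 TPM in UV2 isotype grafts, and at 891, 1213 and 960.4 TPM against 1372, 1697 and 1764 TPM under anti-PD-1. The isotype groups overlapped through parental replicate 3 and UV2 replicate 3, and the anti-PD-1 groups did not overlap. Its difference was 0.62 ± 0.14 (log2, SE; adjusted p = 0.00821).

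Rps26, which sits at the messenger RNA exit, rose by 0.58 ± 0.14 (adjusted p = 0.00955) and Rps29, a small zinc-binding protein, by 0.69 ± 0.17 (adjusted p = 0.0106). Rps10 and Rps20, both on the subunit head, rose by 0.39 ± 0.10 (adjusted p = 0.0113) and 0.51 ± 0.14 (adjusted p = 0.0185). Rps6 had a difference of 0.22 ± 0.10 (adjusted p = 0.105), Rps3, which lines the messenger entry, 0.26 ± 0.10 (adjusted p = 0.0694), and Rps12 0.31 ± 0.13 (adjusted p = 0.0784). Rps14 (0.33 ± 0.13, adjusted p = 0.0715), Rps4x, encoded on the X chromosome (0.28 ± 0.12, adjusted p = 0.0776), and Rps27a, made as a fusion with ubiquitin (0.31 ± 0.14, adjusted p = 0.0952), did not pass. Rpsa had a difference of 0.25 ± 0.13 (adjusted p = 0.148), and Rps2 was the lowest of the subunit at 0.06 ± 0.11 (adjusted p = 0.681).

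In the large subunit, 17 of 48 members rose and none fell, with a median of 0.27, where 13.4% of all genes rose and 19.6% fell. Rpl36 (chr17:56613416-56614243, plus strand) stood at 757, 896 and 1134 TPM in parental isotype grafts, 903, 1199.6 and 1008 TPM under anti-PD-1, and 939, 937 and 954 TPM under triple therapy. In UV2 it stood at 1731, 1892 and 1204 TPM with isotype antibody and 1401, 1610.5 and 1796 TPM with anti-PD-1. All 6 UV2 libraries lay above all 9 parental ones, although UV2 isotype replicate 3 did so by only a few TPM. Rpl36 was higher by 0.71 ± 0.13 (log2, SE; adjusted p = 0.00335).

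Rpl27a rose by 0.43 ± 0.12 (adjusted p = 0.0164). Rpl13a, known from the interferon-γ-activated inhibitor of translation complex, rose by 0.33 ± 0.11 (adjusted p = 0.0391), and Rpl38, known for its part in skeletal patterning, by 0.47 ± 0.17 (adjusted p = 0.0469). Around the exit tunnel, Rpl17 (0.35 ± 0.11, adjusted p = 0.0344), Rpl39 (0.36 ± 0.12, adjusted p = 0.0328) and Rpl35 (0.40 ± 0.13, adjusted p = 0.0386) rose, 3 of the 5 members listed for the tunnel. The other 2, Rpl4 and Rpl23a, had differences of -0.09 ± 0.09 (adjusted p = 0.422) and 0.23 ± 0.11 (adjusted p = 0.129).

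Rpl4 (chr9:64173375-64178666, plus strand) stood at 1919, 2082 and 1979 TPM in parental isotype grafts, 1885, 2032 and 2026 TPM under anti-PD-1, and 1822, 2008 and 1930.3 TPM under triple therapy. In UV2 it stood at 2374, 1728 and 1871 TPM with isotype antibody and 1790.1, 1891 and 1615 TPM with anti-PD-1. The UV2 libraries held both the highest and the lowest values. Rpl3, at the peptidyl transferase center, had a difference of -0.02 ± 0.09 (adjusted p = 0.865), Rpl26 of -0.01 ± 0.22 (adjusted p = 0.963), Rpl10 of 0.09 ± 0.08 (adjusted p = 0.381), and Rpl22 of 0.25 ± 0.11 (adjusted p = 0.0967). The Rpl26 value is uncertain, because a near-identical row held most of its signal. When libraries were centred on the member median, 6 members were higher in UV2 (Rplp1, Rplp2, Rpl36, Rps13, Rps26 and Rps29) and 11 lower (Rplp0, Rpl3, Rpl4, Rpl5, Rpl7a, Rpl10, Rpl10a, Rpl14, Rpl23, Rpl36a and Rps2). Among the lower ones Rpl4 was at -0.46 (adjusted p = 0.0220) and Rpl3 at -0.39 (adjusted p = 0.0198). The counts of the centred fit are not to be set against the 13.4% of all genes higher and 19.6% lower, which belong to the deposited values. The share of all genes called in the centred fit is not reported here, so these counts do not show whether members stood out.

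The subgroups that follow are small and need not hold every member of their kind. They are to be read against the 30 of all 79 members that rose, and against the 13.4% of all genes that rose. Of 9 members listed for variants that cause Diamond-Blackfan anemia, a failure of red cell production, 6 rose: Rps7, Rps10, Rps24, Rps26, Rpl11 and Rpl35a. Rps19, the most often affected, had a difference of 0.33 ± 0.13 (adjusted p = 0.0671) and Rpl5 of 0.12 ± 0.09 (adjusted p = 0.327). Of 6 members listed as binding the p53 regulator Mdm2, 2 rose, Rpl11 at 0.34 ± 0.11 (adjusted p = 0.0285) and Rps7 at 0.29 ± 0.09 (adjusted p = 0.0264). Of 4 X-linked members, Rpl39 rose. The paralogs Rps27l, a p53 target, and Rpl3l had differences of 0.13 ± 0.12 (adjusted p = 0.428) and 0.34 ± 0.35 (adjusted p = 0.455).

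With isotype antibody alone, UV2 and parental grafts differed in the same direction for 76 of 79 members, but no member passed the test. At an unadjusted p under 0.05 in limma's test there were 10 of 79 members and 17.8% of all genes. Library weights gave 15 members called higher, against 8.52% of all genes, and without weights 1.29% of all genes were called, 0.905% higher. The median was 0.23 against -0.04 for all genes, and -0.08 when centred on the member median. Rpl36 (0.79 ± 0.19, adjusted p = 0.0602) and Rplp1 (0.77 ± 0.21, adjusted p = 0.0851) were the 2 members of 79 whose groups did not overlap, both being higher, against 10.4% of all genes higher and 9.15% lower without overlap, and Rplp2 had a difference of 0.81 ± 0.25 (adjusted p = 0.117). The lowest were Rpl39l at -0.20, Rpl26 at -0.03 and Rpl4 at -0.01, of which Rpl26 is uncertain because a near-identical row held most of its signal. Leaving out parental isotype replicate 3, the parental library with the highest ribosomal share, gave 5 calls, and leaving out UV2 isotype replicate 3 or parental triple therapy replicate 1 gave 1 each.

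With anti-PD-1, 14 of 79 members rose in UV2 and none fell, where 26.4% of all genes were called, 9.31% higher and 17.1% lower. In 35 members the UV2 group was higher without overlap and in none lower, against 16.9% and 34.3% of all genes. An unadjusted p under 0.05 was found for 37 members and for 45.1% of all genes in either direction, a share close to that of the members. The median was 0.36 against -0.21 for all genes, and it turned to -0.08 when centred on the member median and to -0.04 with the coding-length trend removed. Among those with the smallest p-values were Rplp1 (0.84 ± 0.21, adjusted p = 0.0215), Rps29 (0.86 ± 0.24, adjusted p = 0.0273) and Rpl39l (2.01 ± 0.57, adjusted p = 0.0281). They were followed by Rps10 (0.47 ± 0.14, adjusted p = 0.0320), Rpl36 (0.63 ± 0.19, adjusted p = 0.0331), Rps27, Rps13, Rpl37a and Rpl27a, of which Rps27 is uncertain because a copy holds most of its signal. The lowest were Rpl4 (-0.17 ± 0.12, adjusted p = 0.295), Rpl3 (-0.14 ± 0.13, adjusted p = 0.395) and Rplp0 (-0.03 ± 0.13, adjusted p = 0.868). No member was called without parental anti-PD-1 replicate 3, UV2 anti-PD-1 replicate 2 or UV2 anti-PD-1 replicate 3. The count was 1 without parental anti-PD-1 replicate 1, 8 without triple therapy replicate 3, 29 without UV2 isotype replicate 3, 24 without UV2 anti-PD-1 replicate 1, and 10 to 21 without any of the others.

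These comparisons share libraries, since the average over both antibodies contains the other two. Scaling each library by the median of its gene ratios raised the median of all genes by 0.05, 0.24 and 0.15 in the isotype, anti-PD-1 and averaged comparisons. Relative to all genes the members then stood at 0.28, 0.60 and 0.45, close to the 0.27, 0.56 and 0.43 of the deposited values. Under quantile normalization, which gives all libraries one distribution and raised the median of all genes by 0.02, 0.16 and 0.09, they stood at 0.10, 0.16 and 0.14. With the length trend removed they stood at 0.14, 0.18 and 0.16. Centring on the member median lowered the median of all genes by 0.31, 0.44 and 0.37 and by construction left the distance between members and all genes as it was. The split of all called genes moved as well: 40.7% of calls in the averaged comparison were higher as deposited and 51.5% after median-of-ratios scaling, in the anti-PD-1 comparison 35.3% and 52.1%, and in the isotype comparison 69.9% and 44.2%. Among members, quantile normalization gave 13 higher and 2 lower in the averaged comparison, and 7 higher and 3 lower with anti-PD-1. The share of all genes called under quantile normalization is not reported here.

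Markers of immune cells moved with the line. In the averaged comparison 13 of 15 tested T cell markers and 8 of 12 macrophage and monocyte markers rose, with medians of 1.87 and 1.25, and 10 of 21 cell division genes fell. Of all genes 13.4% rose and 19.6% fell there. Summed macrophage and monocyte markers ran from 2635 to 5393 TPM in parental libraries, from 5177 to 10427 TPM in UV2 isotype and from 9677 to 14419 TPM in UV2 anti-PD-1 libraries. The order of single libraries differed: UV2 isotype replicate 3 had T cell markers at 427 TPM and a ribosomal share of 12.7%, and UV2 isotype replicate 1 had 109 TPM and 17.2%. Parental isotype replicate 3, with the highest ribosomal share of its line, also had its highest T cell marker sum, 194 TPM. The part of these cells in the ribosomal differences was not tested.

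The size of the difference between lines followed the length of the coding sequence. Of 26 members with a coding sequence under 400 bases, 16 rose in UV2 in the averaged comparison (median 0.40), of 29 with at least 400 and under 600 bases 10 rose (median 0.29), and of 24 with at least 600 bases 4 rose (median 0.24). Of all genes 13.4% rose there, so the longest members rose at a share near that of all genes. With anti-PD-1 the counts were 8, 6 and 0, where 9.31% of all genes rose. Across the 79 members the difference correlated with log2 coding length at r = -0.54 (Spearman's rho -0.49) in the averaged comparison, r = -0.59 (rho -0.55) with anti-PD-1 and r = -0.19 (rho -0.21) with isotype antibody. These correlations are across genes that share the same libraries and are a description.

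Genes outside the family followed length too. Among 1659 other tested genes under 600 bases, 383 (23.1%) rose in the averaged comparison and their median was 0.15, whereas among 2721 genes over 2400 bases 129 rose, 736 fell and the median was -0.39. The median log2 level of these short genes minus that of the long genes was taken, with each gene relative to its mean over libraries. This difference was -0.29, -0.48 and 0.53 in parental isotype replicates 1 to 3, and -0.50, -0.01 and -0.44 under anti-PD-1. It was 0.11, 0.76 and -0.25 in UV2 isotype replicates, and 0.04, 0.58 and 0.85 in UV2 anti-PD-1 replicates. Parental isotype replicate 3 and UV2 isotype replicate 3 thus stood apart from their groups in this value as they did in the ribosomal share. Whether this length trend comes from the libraries or the tumors was not tested.

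After a linear trend of each library on log2 coding length was removed, an alternative chosen after the data were seen, 6 members were higher in the averaged comparison, 4 with isotype antibody and 1 with anti-PD-1, where 1 was lower. These counts are not to be set against the shares of all genes called with the deposited values. The share of all genes called in this fit is not reported here, so the counts do not show whether members stood out. Rplp1 (0.44 ± 0.06, adjusted p = 0.000982), Rplp2 (0.42 ± 0.08, adjusted p = 0.00278) and Rpl36 (0.33 ± 0.09, adjusted p = 0.0146) passed in the averaged comparison, and Rplp0 was at -0.002 ± 0.09 (adjusted p = 0.989). With isotype antibody, where none had passed before, Rplp1 (0.59 ± 0.08, adjusted p = 0.0127), Rplp2 (0.62 ± 0.11, adjusted p = 0.0192) and Rpl36 (0.59 ± 0.12, adjusted p = 0.0347) were called. With anti-PD-1, Rplp1 kept its call at 0.30 ± 0.08 (adjusted p = 0.0272) and Rplp2 did not, at 0.22 ± 0.11 (adjusted p = 0.130). Rplp1, Rplp2 and Rpl36 were thus called in the averaged comparison as deposited, centred on the member median and with the length trend removed.

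**Figure D4:**
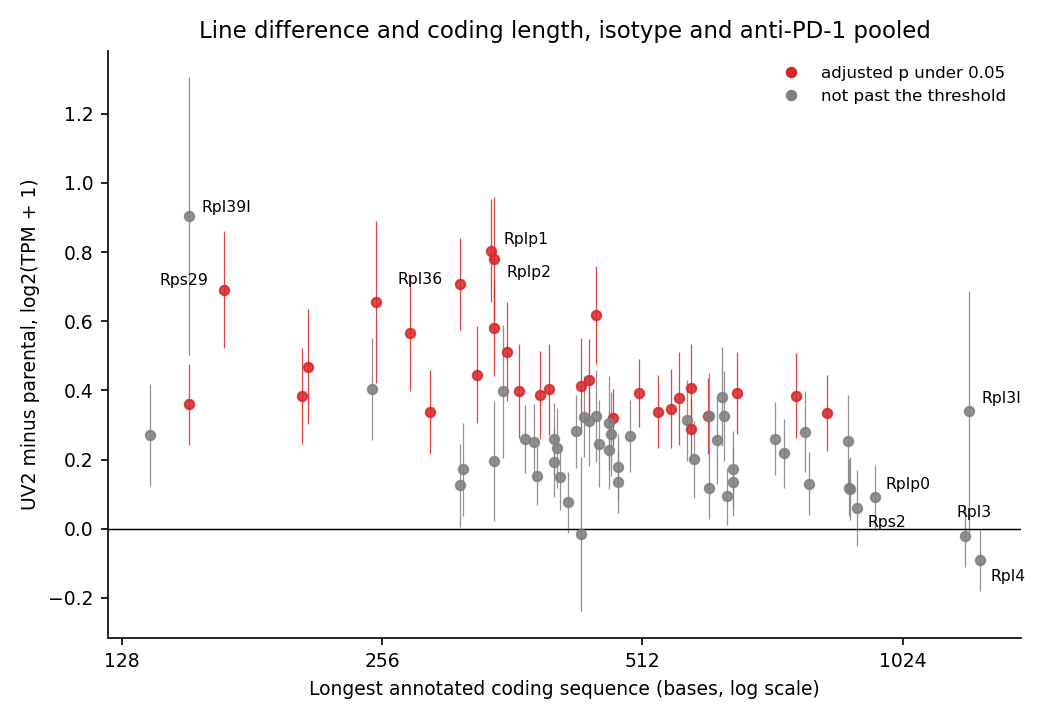
Difference of each of the 79 members between UV2 and parental grafts, averaged over both antibodies (y axis, log2, bars ± SE), against the longest annotated coding length (x axis, bases, log scale); red points have an adjusted p under 0.05. Short genes lie higher (r = -0.54) and Rpl3 and Rpl4 lie near 0; relative to the member median of each library 6 members are higher in UV2 and 11 are lower, and with each library's length trend removed 6 are higher.

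Some members cannot be read from their own row, because a near-identical gene or processed pseudogene held most of the signal of the pair. Transcripts of other rows were counted if a stretch matched at least 80% of a member's coding sequence with at least 95% identity. By this count 13 members had 14 near-identical rows. Rps27 (chr3:90212522-90213651, minus strand) stood at 6.02 TPM, whereas Gm9846 on chromosome 9, also known as Rps27rt, with 100% identical coding sequence, stood at 2272 TPM. Rpl34 stood at 30.5 TPM against 1856 TPM for Rpl34-ps1 (99.4% identical), Rpl30 at 86.1 TPM against 1893 TPM for Gm12191 (99.7%), and Rpl26 at 194 TPM against 2169 TPM for Gm15772 (99.5%). The single-row values of these 4 members are uncertain, since the authors' counting could split their reads.

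Adding the copies to their members changed which of them passed in the averaged comparison. Rps27 went from 0.66 ± 0.23 (adjusted p = 0.0469) to 0.50 ± 0.11 (adjusted p = 0.00537), and Rpl34 from 0.40 ± 0.19 (adjusted p = 0.120) to 0.34 ± 0.11 (adjusted p = 0.0298). Rpl26 was then at 0.28 ± 0.11 (adjusted p = 0.0649) and Rpl30 at 0.19 ± 0.10 (adjusted p = 0.148). In all, 31 members were called in place of 30, and 15 in place of 14 with anti-PD-1. The copies added 0.646% to 1.09% of TPM per library. This sum was also chosen after the data were seen.

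**Figure D5:**
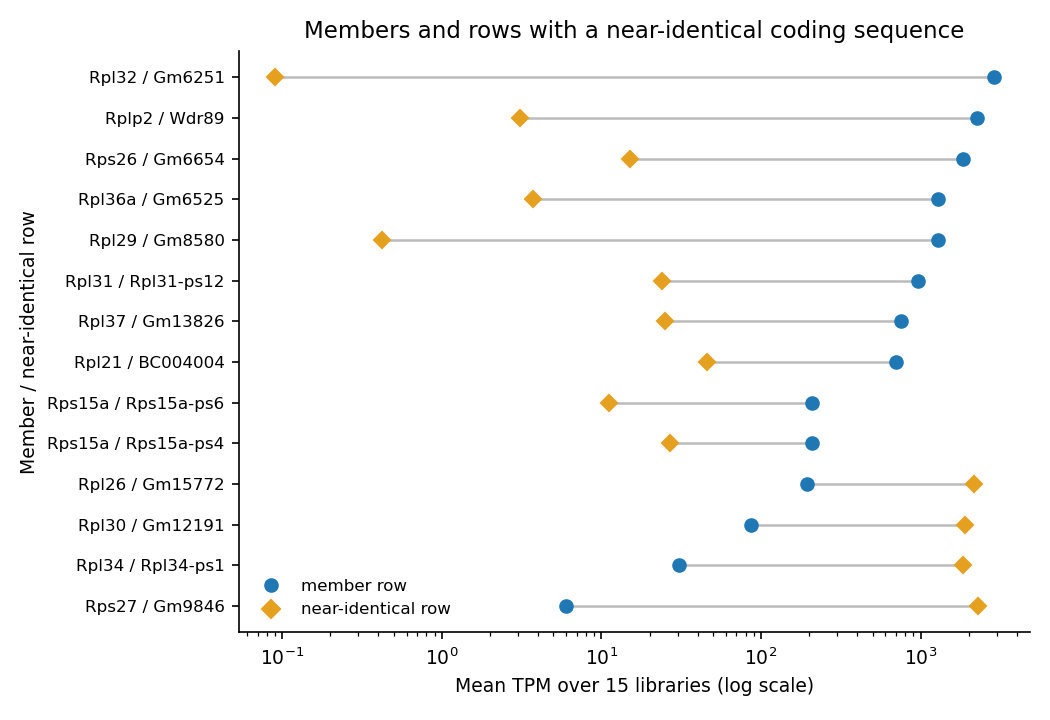
Mean TPM over 15 libraries (axis on a log scale) of members and of the rows with a transcript stretch near-identical to the member's coding sequence. For Rps27, Rpl34, Rpl30 and Rpl26 the copy is the higher of the pair, at 1856 to 2272 TPM, and for the other members the member is.

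No member passed the test in any comparison of treatments within a line. In these comparisons the single-row values of Rps27, Rpl34, Rpl30 and Rpl26 are uncertain, because a near-identical row held most of the signal. Anti-PD-1 against isotype antibody in parental grafts gave no called member with limma (0% of all genes were called), no member with an unadjusted p under 0.05 (0.611% of all genes) and none called with library weights (0.00736% of all genes higher). The member median was -0.12 against 0.07 for all genes, 9 of 79 members were positive, and every member's groups overlapped, where 2.70% of all genes were higher and 1.57% lower without overlap. The extremes were Rpl26 at -0.50 ± 0.32, Rps27 at -0.45 and Rpl41 at -0.31 on one side, and Rplp2 at 0.18, Rpl36 at 0.17 and Rpl12 at 0.06 on the other, all with an adjusted p of 1 after rounding.

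In UV2 grafts anti-PD-1 against isotype antibody gave no called member, with 2 genes called in all (0.0147%) 1 member with an unadjusted p under 0.05 in limma's test (9.16% of all genes) and none called with library weights (0.0956% of all genes higher). The member median was -0.003 and that of all genes -0.11, and 38 of 79 members were positive. Rpl3 was lower without overlap, as were 7.28% of all genes: 2387, 2014 and 1809 TPM with isotype antibody and 1729, 1760.5 and 1700.2 TPM with anti-PD-1, a difference of -0.25 ± 0.13 (adjusted p = 0.557). Rpl26 was at -0.46, Rplp0 at -0.20, Rps27 at 0.44 and Rpl37a at 0.21. With copies summed, Rpl26 had means of 2614 TPM with isotype antibody and 2724 TPM with anti-PD-1, the opposite direction. Rps27 with its copy had 2554 and 2989 TPM, the same direction. The isotype libraries are those used in the comparison between lines.

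Triple therapy against isotype antibody in parental grafts gave no called member, with 3 genes called in all (0.0221%), a member median of -0.13 against 0.12 for all genes and 6 of 79 members positive. In limma's test 1 member and 12.6% of all genes had an unadjusted p under 0.05, and with library weights 2 members and 19.7% of all genes were called higher. Rpl41 was lower without overlap, as were 3.39% of all genes, at -0.29 ± 0.21 (adjusted p = 0.578), its levels being 4108, 3976 and 4980 TPM with isotype antibody and 3279, 3811 and 3527 TPM with triple therapy. Rpl30 was at 0.44, Rpl36 at 0.04, Rps27l at -0.30 and Rps27 at -0.29. With copies summed, Rpl30 had means of 1949 TPM with isotype antibody and 1848 TPM with triple therapy, the opposite direction. Rps27 with its copy had 2040 and 1952 TPM, the same direction. Against anti-PD-1, triple therapy gave no called member and no called gene (0%), a median of -0.02 against 0.04 and 33 positive members. In limma's test 1 member and 10.4% of all genes had an unadjusted p under 0.05, and with library weights 4 members and 13.7% of all genes were called higher. Rplp2 was lower without overlap, as were 5.01% of all genes, at -0.25 ± 0.25 (adjusted p = 0.839), Rplp0 was at -0.21, Rpl34 at -0.21, Rpl30 at 0.48 and Rpl26 at 0.45. With copies summed, the means under anti-PD-1 and triple therapy were 1801 and 1848 TPM for Rpl30. They were 1582 and 1726 TPM for Rpl34 and 2115 and 2086 TPM for Rpl26, both in the opposite direction. Triple therapy was given in parental grafts alone.

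The exception in size was Rpl39l (chr16:10170226-10174911, plus strand), the paralog of the exit tunnel protein Rpl39 that is known from testis and from tumors. It stood at 4.49, 4.43 and 4.31 TPM in parental isotype grafts, 8.70, 1.91 and 3.34 TPM under anti-PD-1 and 41.6, 13.5 and 20.2 TPM under triple therapy. In UV2 it stood at 3.77, 1.16 and 9.17 TPM with isotype antibody and at 12.0, 24.5 and 23.0 TPM with anti-PD-1. The triple therapy and UV2 anti-PD-1 groups did not overlap with the parental isotype, parental anti-PD-1 or UV2 isotype groups, and their order from low to high was parental isotype (mean 4.41), parental anti-PD-1 (4.65), UV2 isotype (4.70), UV2 anti-PD-1 (19.8) and triple therapy (25.1), in which the first 3 and the last 2 do not differ beyond their spread.

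Rpl39l was at 2.08 ± 0.57 for anti-PD-1 against isotype in UV2 (adjusted p = 0.542), 2.12 ± 0.57 for triple therapy against isotype (adjusted p = 0.313) and 2.24 ± 0.57 for triple therapy against anti-PD-1 (adjusted p = 0.377), none of which passed. Groups that were higher without overlap, as for Rpl39l, were found in 5.70%, 12.7% and 7.30% of all genes in these comparisons. The difference between lines with anti-PD-1 did, at 2.01 ± 0.57, but lost its call without parental anti-PD-1 replicate 2 or 3 or UV2 anti-PD-1 replicate 2 or 3 (adjusted p = 0.068 to 0.113), when centred on the member median (1.57, adjusted p = 0.0730) and with the length trend removed (1.16, adjusted p = 0.224). In the average over both antibodies it was 0.90 ± 0.40 (adjusted p = 0.0947). Its parent Rpl39 ran from 1754 to 3181 TPM over the 15 libraries. Summed keratinocyte markers were at 247 to 38098 TPM with triple therapy and at 10.7, 9.46 and 466 TPM in UV2 anti-PD-1 replicates 1 to 3, against 7.08 to 11.04 TPM in the other 3 groups. In keratinocyte markers, replicates 1 and 2 of UV2 anti-PD-1 lay within the range of those groups, and in Rpl39l above it. The part of keratinocytes in the Rpl39l levels was not tested.

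Whether anti-PD-1 acted differently in the 2 lines was tested as an interaction, UV2 minus parental. No member and no gene passed limma's test (0% called), with 1 member and 404 of all genes (2.97%) at an unadjusted p under 0.05 and no member called with library weights. The member median was 0.10 against -0.16 for all genes, with 63 of 79 members positive, and it turned to -0.16 with the length trend removed. Rpl39l was at 2.21 ± 0.80 (adjusted p = 0.800), Rps27 at 0.90 ± 0.47, Rpl37a at 0.41 ± 0.34, Rplp0 at -0.24 ± 0.19, Rpl3 at -0.24 ± 0.18 and Rpl36 at -0.16 ± 0.27. The Rps27 value is uncertain, because a near-identical row held most of its signal.

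Other gene lists linked to the ribosome are set here against the 13.4% of all genes that rose and the 19.6% that fell in the averaged comparison. Of 9 tested genes for ribosomal proteins that the symbol rule does not take in, 2 rose in UV2 in the averaged comparison, among them Fau (0.48 ± 0.15, adjusted p = 0.0271), whose protein is made as a fusion with a ubiquitin-like part. Among 23 genes listed for TOP messages, which include Fau, 3 rose and 2 fell, the median being 0.02, so that the share that rose was near that of all genes. Eif3f rose by 0.30 ± 0.10 (adjusted p = 0.0345), and the helicase cofactor Eif4b fell by 0.51 ± 0.17 (adjusted p = 0.0320) and the poly(A)-binding protein Pabpc4 by 0.46 ± 0.16 (adjusted p = 0.0452). Of 40 ribosome biogenesis genes none rose and 8 fell, the latter a share near that of all genes, with a median of -0.24. Among them were the nucleolar genes Taf1d (-0.54 ± 0.13, adjusted p = 0.00890), Gnl3 (-0.53 ± 0.13, adjusted p = 0.00952), Nolc1 (-0.57 ± 0.18, adjusted p = 0.0309) and Ddx21 (-0.55 ± 0.18, adjusted p = 0.0355). All genes had a median of -0.12 in the same comparison.

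Of 21 genes of mTOR signaling and translation control, 2 rose and 5 fell (median -0.40), shares near those of all genes. The Myc partner Max rose by 0.38 ± 0.08 (adjusted p = 0.00686) and the translation inhibitor Pdcd4 by 0.63 ± 0.17 (adjusted p = 0.0167), while Eif4ebp1, an mTORC1 target that holds back translation, fell by 0.50 ± 0.15 (adjusted p = 0.0213) and Larp1, which binds TOP messages, fell by 0.54 ± 0.17 (adjusted p = 0.0276). Mitochondrial ribosomal proteins, 76 genes, had 14 that rose, Mrpl34, Mrpl52, Mrps24 and Mrpl36 first, and 5 that fell, with a median of 0.10. Of 49 respiratory chain genes, listed for their short messages, 16 rose and none fell (median 0.30), Ndufc2 by 0.79 ± 0.15 (adjusted p = 0.00383).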

How the data were processed

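RNA-seq gene levels of 15 libraries in 5 groups of 3 were used. Per the submitters' processing notes the authors used Bowtie2 and RSEM with mm10/GRCm38, and versions are not given in the sources used here. The deposited values are TPM from RSEM, which keep no read depth, so a count model could not be used and the precision of low values is unknown. All 15 columns were used.

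Genes with at least 1 TPM in at least 3 libraries (13592) were tested on log2(TPM + 1) with limma 3.58.1 in R 4.3.3 (trend and robust moderation, all 5 groups in one fit, 10 residual degrees of freedom), in 8 comparisons, with Benjamini-Hochberg adjustment over all genes and a call at an adjusted p under 0.05. Fold changes on this scale understate the change of low genes. The tests were checked on simulated data. Noise there was drawn independently for each gene, so the check does not cover shifts that many genes of a library share. Coding lengths and positions came from GENCODE M21 (GRCm38), promoters from RefSeq (GRCm38.p6), and near-identical copies from BLAST 2.17.0 (at least 95% identity over at least 80% of the coding sequence).

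Members and lists were chosen with earlier results of these data known. Named members are a fixed set of well-known ones and those of functional subgroups, up to 10 called members per comparison by p, the 3 highest and 3 lowest differences, and the 3 most and least abundant and variable, with a mean of at least 5 TPM for extremes. From other lists up to 4 called genes were named. Some genes that these rules take in are not reported here. Alternatives were other pseudocounts, filters, normalizations, sample sets, weights, a replicate block and leaving out each library.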

Additional observations from a re-analysis of the deposited data

How the results depend on the processing

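Each result was recomputed under other settings, changing one choice at a time. For UV2 against parental with isotype antibody (0 members called), library weights gave 15 and removal of the coding-length trend 4, and centring on the member median turned the median to -0.0821. With anti-PD-1 (14 higher), the count was 8 with no filter, 9 with median-of-ratios scaling, 7 with quantile normalization, 2 centred, 58 with library weights and 1 with the length trend removed, and 3, 5 and 1 members were lower in the quantile, centred and length settings; the medians were 0.63 (median-of-ratios), 0.11 (quantile), -0.0790 (centred) and -0.0406 (length). In the averaged comparison (30 higher), the count was 17, 13, 6, 68 and 6 under median-of-ratios, quantile, centring, weights and length removal, with 2 lower under quantile and 11 under centring, and medians of -0.0632 (centred) and 0.0285 (length). Centring turned Rplp0 to -0.28 averaged. Library weights, estimated gene by gene because the default estimation stopped before convergence, called 2 members where triple therapy was set against isotype antibody and 4 where it was set against anti-PD-1. Of all genes, weights called 8.52%, 21.4% and 23.4% higher in the isotype, anti-PD-1 and averaged comparisons of lines. In the comparisons of triple therapy they called 19.7% and 13.7% higher. Member counts under the other settings are not to be set against the shares of all genes called with the deposited values. For those settings the share of all genes called is not reported here, so the counts do not show whether members stood out. The interaction median was -0.16 with the length trend removed. With copies summed, the mean share of TPM became 12.8 for triple therapy. Median-of-ratios scaling multiplies all genes of a library by the same factor, so it leaves the ribosomal share of that library unchanged. The summed member level after this scaling, as a percent of the unscaled library total, had a mean of 10.9 for triple therapy and 18.2 for UV2 anti-PD-1. These 2 values are not shares. Taking only the base at the start itself, 22.0% of members had a C with 4 pyrimidines there. By construction, centring removes the shift that members share; the cause of the other changes was not tested.

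Leaving out 1 library at a time gave 0 to 5 calls with isotype antibody, 0 to 29 with anti-PD-1 and 9 to 56 averaged, and all medians between lines stayed positive. A replicate block gave 8 calls with anti-PD-1, 23 averaged and 0 with isotype antibody. Replicate numbers showed no sign of pairing the samples: 10 of 30 same-number pairs correlated above 0.1 (-0.54 to 0.47), and 4 of 15 libraries correlated best with their own number. With 3 libraries per group this cannot exclude pairing. Values of single named members were also compared with the main fit. A called member counted as the same if it kept its direction and its call. An uncalled member counted as the same if it stayed uncalled within 1 SE of its main value, whatever its direction. An uncalled member beyond that counted as moved. Under the settings that keep all libraries, 725 values were the same, 29 lost and 24 gained a call, 46 moved and 1 reversed. With 1 library left out, 1074 were the same, 40 lost and 6 gained a call and 5 moved. Read depth is unknown and limits what can be said of members with few TPM.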
